A study of Homo sapiens with 6 samples.

Results

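The genes described here are 43 interferon-stimulated and interferon pathway genes, chosen by name: the receptor for type I interferon and its kinases, transcription factors of the pathway, and genes that interferon is known to induce. Of these, 41 had at least 1 probe set that names only them, out of 18132 genes tested on the arrays. USP18 was covered only by a probe set that also names 4 other loci, and STAT2 was not analysed here. The arrays held RNA from 6 samples of TPC-1, an established line from a human papillary thyroid carcinoma. Of these samples 3 received a lentivirus that expresses a short hairpin RNA (shRNA) against SHCBP1, and 3 received a lentivirus that expresses a control shRNA. All 6 were therefore infected, and uninfected cells were not analysed here. The extraction text names the cells as DLD1, a colorectal carcinoma line, and not as TPC-1. The labels name 1 SHCBP1 shRNA and no rescue, so reduced SHCBP1 and anything else this hairpin does cannot be told apart.

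Type I interferons are secreted proteins that bind a receptor made of IFNAR1 and IFNAR2, to which the kinases TYK2 and JAK1 are attached. The kinases activate transcription factors, and a complex that includes IRF9 binds the interferon-stimulated response element (ISRE) in the promoters of target genes, many of which encode proteins that bind foreign RNA or block viral replication. Viral RNA and some synthetic double-stranded RNAs are known to start this response through sensors such as IFIH1, and it can also run at a low level in tumour cells without infection.

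In the deposited log2 values every probe set has a median of 0 across the arrays, which lets arrays be compared but carries no level of expression. A value of 0 is the median of the 6 arrays for that probe set, and a gene's value is the mean of its probe sets. Whether a gene was expressed at all, and whether the cells carry thyroid or colorectal markers, could not be read from such values. Between the groups, FOXE1 was higher and HHEX lower among 6 thyroid markers (16.7% each, beside 22.0% and 19.0% of all genes). LGR5 and CDX2 were higher among 7 intestinal markers (28.6%, beside 22.0%) and none was lower. When scaled to the spike-in controls described below, only 1 intestinal marker and no thyroid marker stood above 0. SHCBP1 itself stood at -0.95, -0.76 and -0.72 in the SHCBP1 shRNA arrays, against 0.72, 0.76 and 0.71 in the control shRNA arrays, a log2 difference of -1.54 ± 0.06 (SE, n = 3 arrays per group). Over all genes, 41.0% passed limma's test at a Benjamini-Hochberg adjusted p under 0.05, 22.0% being higher with SHCBP1 shRNA and 19.0% being lower. The poly-A spike-in controls, which are bacterial transcripts, read 0.43 log2 higher with SHCBP1 shRNA than with control shRNA, and scaling to them moves the median difference of all genes from 0.02 to -0.41. In such bulk RNA, fewer cells that express a gene and less of its RNA per cell cannot be told apart. Every change below is thus a change set against the rest of the measured genes. The labels do not say that the samples came from separate cultures, and the spread that the p-values rest on may be technical. The number of arrays limits the precision.

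The interferon genes did not move as one group. In the SHCBP1 shRNA arrays 13 of 41 were higher (31.7%, beside 22.0% of all genes), 8 were lower (19.5%, beside 19.0%) and 20 did not pass. Their median log2 difference was 0.02, the same to 2 decimals as that of all 18132 genes. Without spike-in scaling no interferon gene changed 2-fold. Changes of at least that size were rare among all genes as well (1.22% passed the test with one), so none among 41 is near that share. The 3 SHCBP1 shRNA values lay entirely above the control values in 14 of the 41 genes and entirely below them in 10, beside 27.3% and 22.7% of all genes. These include OAS2, above, and IFI27 and IFI44, below, which did not pass the test. The rises were led by IFIT2 (1.82-fold), IFIT1 (1.62-fold) and IFI6 (1.41-fold), and the falls by HERC5 (1.91-fold) and JAK1 (1.75-fold). With spike-in scaling 10 of the 13 rises turned negative, and only IFIT1 and IFIT2 still passed as higher. IFNAR1, IFNAR2, IRF1, IFIH1, IFIT3 and PARP9 then passed as lower, as did 16268 of 18132 genes. The falls of HERC5 and JAK1 grew to -1.37 and -1.24 log2, each more than 2-fold.

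**Figure D1:**
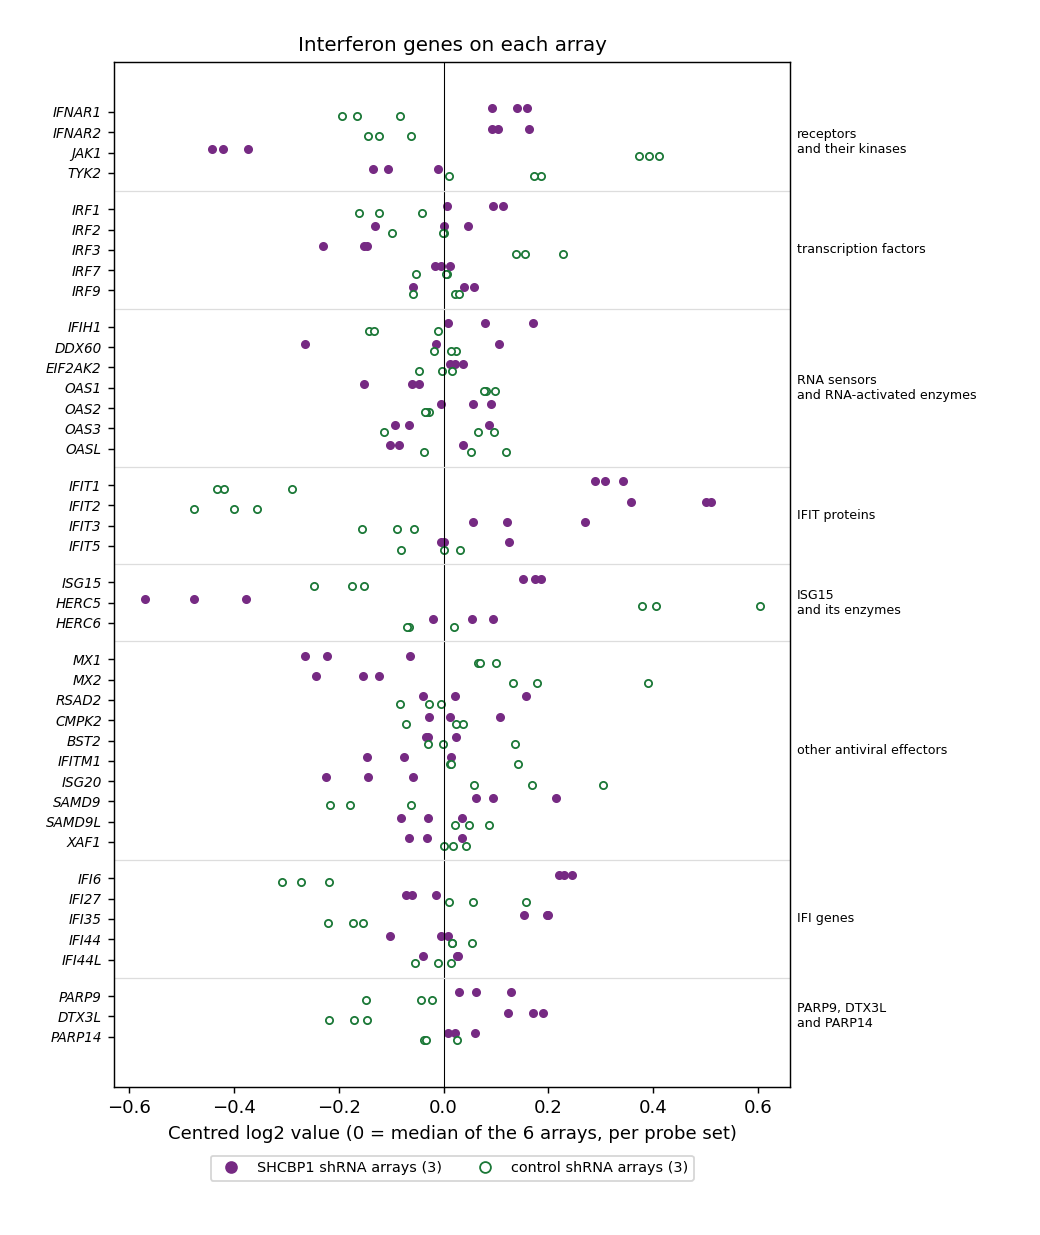
Centred log2 value of each interferon gene (x axis, 0 is the median of the 6 arrays for a probe set) on the 3 SHCBP1 shRNA arrays (filled) and the 3 control shRNA arrays (open), with genes grouped by role. IFIT1, IFIT2, IFI6, HERC5 and JAK1 show the widest gaps between the groups, while IRF7, EIF2AK2 and PARP14 lie close to 0 on every array.

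The 2 chains of the receptor and its 2 kinases moved in opposite directions. IFNAR1, the chain that carries TYK2, stood at 0.16, 0.09 and 0.14 in the SHCBP1 shRNA arrays, against -0.17, -0.19 and -0.08 in the control shRNA arrays. IFNAR2, the chain that carries JAK1, gave 0.09, 0.16 and 0.10 in the SHCBP1 shRNA arrays and -0.12, -0.14 and -0.06 in the control shRNA arrays. In both genes every SHCBP1 shRNA array lay above every control array. IFNAR1 was higher by 0.28 ± 0.04 log2 (SE, adjusted p = 0.0011) and IFNAR2 by 0.23 ± 0.04 log2 (SE, adjusted p = 0.00204), but spike-in scaling turns both negative (-0.16 and -0.20). All 4 probe sets of IFNAR1 and all 3 of IFNAR2 pointed up, from 0.16 to 0.37 and from 0.10 to 0.41.

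JAK1, the kinase shared by the receptors of all interferon types and of many cytokines, had centred values of -0.37, -0.42 and -0.44 in the SHCBP1 shRNA arrays, against 0.39, 0.37 and 0.41 in the control shRNA arrays. The groups were far apart and tight within themselves. Its log2 difference was -0.80 ± 0.03 (SE, adjusted p = 2.57e-06), and its 3 probe sets gave -1.07, -0.69 and -0.65. TYK2, which has 1 probe set, stood at -0.14, -0.01 and -0.11 in the SHCBP1 shRNA arrays and at 0.19, 0.01 and 0.17 in the control shRNA arrays. In each group the array of replicate 2 lay nearest to 0, so the groups nearly touched. TYK2 was lower by -0.21 ± 0.06 log2 (SE, adjusted p = 0.0246), a call that was lost when any one of 4 arrays was left out (adjusted p up to 0.0814) or with the replicate number as a block (adjusted p = 0.0637). Over these 4 genes 2 rose and 2 fell (50% each, beside 22.0% of all genes higher and 19.0% lower).

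Among the transcription factors 1 rose and 1 fell (20% each, beside 22.0% and 19.0% of all genes), and 3 did not pass. IRF3, which is known to switch on the gene for interferon beta once phosphorylated, gave -0.15, -0.23 and -0.15 in the SHCBP1 shRNA arrays, against 0.16, 0.14 and 0.23 in the control shRNA arrays. The groups did not overlap, and all 6 of its probe sets fell, from -0.44 to -0.30. Its log2 difference was -0.35 ± 0.04 (SE, adjusted p = 0.000323). IRF1, an activator that interferon gamma strongly induces, gave 0.01, 0.11 and 0.09 in the SHCBP1 shRNA arrays and -0.04, -0.16 and -0.12 in the control shRNA arrays. SHCBP1 shRNA replicate 1 and control replicate 1 were the closest arrays. IRF1 was higher by 0.18 ± 0.05 log2 (SE, adjusted p = 0.0164), with 3 probe sets between 0.22 and 0.28 and 1 at -0.02, while spike-in scaling turns it negative (-0.25). The IRF1 call was lost when any one of 4 arrays was left out (adjusted p up to 0.0564). IRF2 (0.01, 95% confidence interval -0.12 to 0.13), IRF7 (0.01, interval -0.07 to 0.09) and IRF9 (0.02, interval -0.09 to 0.12) did not pass. IRF7 and IRF9 are themselves induced by interferon in many cells.

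The sensors and RNA-activated enzymes gave 1 rise and 1 fall (14.3% each, beside 22.0% and 19.0% of all genes), and 5 genes did not pass. IFIH1, also called MDA5, detects long double-stranded RNA. Its values were 0.01, 0.17 and 0.08 in the SHCBP1 shRNA arrays and -0.01, -0.14 and -0.13 in the control shRNA arrays, so that the groups nearly touched at replicate 1. IFIH1 was higher by 0.18 ± 0.06 log2 (SE, adjusted p = 0.0336), and lower by the same test with spike-in scaling (-0.25). Its 2 probe sets disagreed, 1 at 0.47 and 1 at -0.11. The call was also lost when any one of 4 arrays was left out (adjusted p up to 0.105), with the replicate number as a block (adjusted p = 0.0775) and with arrays centred on their median or quantile normalization repeated.

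OAS1, an enzyme that makes oligoadenylates in the presence of double-stranded RNA and so activates RNase L, stood at -0.15, -0.06 and -0.05 in the SHCBP1 shRNA arrays, against 0.08, 0.08 and 0.10 in the control shRNA arrays. The control arrays were tight and lay above every SHCBP1 shRNA array. Its log2 difference was -0.17 ± 0.04 (SE, adjusted p = 0.00913), with 4 probe sets between -0.20 and -0.14. The related genes OAS2 (0.08), OAS3 (-0.04) and OASL (-0.10) did not pass. That reading of OAS2 and OAS3 depends on which probe sets are used: 2 further probe sets that name both genes fell, by 0.59 and 0.47 on the log2 scale (adjusted p = 0.000791 and 8.68e-05 over all probe sets other than controls). Adding them gives a difference of -0.37 for OAS3 (adjusted p = 0.000322) and of -0.09 for OAS2 (adjusted p = 0.0485), so both would then be counted as lower. EIF2AK2, the kinase PKR that stops translation when it binds double-stranded RNA, showed a difference of 0.04 (95% confidence interval -0.04 to 0.11). DDX60, a helicase, had the largest standard error of the 41 genes (0.09 log2), with -0.01, 0.11 and -0.26 in the SHCBP1 shRNA arrays and 0.02, -0.02 and 0.01 in the control shRNA arrays.

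The IFIT genes, whose proteins bind foreign RNA and restrain its translation, held the largest rises. IFIT2 gave 0.51, 0.50 and 0.36 in the SHCBP1 shRNA arrays, against -0.48, -0.40 and -0.36 in the control shRNA arrays. IFIT1 gave 0.34, 0.31 and 0.29 in the SHCBP1 shRNA arrays and -0.29, -0.42 and -0.43 in the control shRNA arrays. For both genes the groups were separated by more than the width of either group. IFIT2 was higher by 0.87 ± 0.05 log2 (SE, adjusted p = 1.32e-05), with probe sets at 0.67 and 1.07, and IFIT1, which has 1 probe set, by 0.69 ± 0.05 log2 (SE, adjusted p = 1.95e-05). With spike-in scaling the differences were 0.43 and 0.26 and both still passed (adjusted p = 0.00014 and 0.00253).

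IFIT3, which binds IFIT1 and stabilises it, had values of 0.06, 0.12 and 0.27 in the SHCBP1 shRNA arrays and -0.09, -0.06 and -0.16 in the control shRNA arrays. SHCBP1 shRNA replicate 3 was the highest, and the groups did not overlap. Its difference was 0.25 ± 0.06 log2 (SE, adjusted p = 0.0114), from 1 probe set whose name ends in _x_at, the ending Affymetrix gives to probes that may bind other transcripts, and -0.18 with spike-in scaling. IFIT5 did not pass, at 0.06 (95% confidence interval -0.06 to 0.17). In all, 3 of 4 IFIT genes rose and none fell relative to the other genes, beside 22.0% of all genes higher and 19.0% lower, and IFIT3 changed sign with spike-in scaling.

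ISG15 is a small protein that is attached to other proteins as ubiquitin is, and genes of this system moved both ways. ISG15 gave 0.19, 0.17 and 0.15 in the SHCBP1 shRNA arrays, against -0.15, -0.25 and -0.18 in the control shRNA arrays. The groups were clearly apart, and the difference was 0.36 ± 0.04 log2 (SE, adjusted p = 0.000163), from 1 probe set whose name ends in _s_at, the ending for probes shared between transcripts of several genes. Spike-in scaling leaves -0.07 for ISG15, which did not pass. HERC5, the main human ligase that attaches ISG15, gave -0.38, -0.48 and -0.57 in the SHCBP1 shRNA arrays and 0.38, 0.41 and 0.60 in the control shRNA arrays. Its log2 difference was -0.94 ± 0.07 (SE, adjusted p = 3.86e-05), from 1 probe set. That was larger in size than the change of IFIT2, but not with quantile normalization repeated (-0.85, against 0.99 for IFIT2) or without replicate 3 of either group. HERC6, the neighbouring gene whose product is the ISG15 ligase in mice, did not pass at 0.08 (95% confidence interval -0.02 to 0.18).

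The enzymes that act before HERC5 are in the wider pathway list and were picked out after their values were seen. UBA7, which activates ISG15, was higher by 0.19 ± 0.03 log2 (SE, adjusted p = 0.00278), and UBE2L6, which carries it to the ligase, by 0.47 ± 0.06 log2 (SE, adjusted p = 0.000381). With spike-in scaling these became -0.25 and 0.04. The probe set that names USP18, the protease that removes ISG15 and also damps the receptor, gave 0.12, 0.38 and 0.27 in the SHCBP1 shRNA arrays and -0.27, -0.16 and -0.12 in the control shRNA arrays. It was higher by 0.44 ± 0.08 log2 (SE, adjusted p = 0.00273 over all probe sets other than controls), and cannot be assigned to USP18 alone. Spike-in scaling lowers every difference by 0.43, which is nearly all of this rise. So 1 ligase gene of this system fell while ISG15 and both enzymes before the ligase were higher relative to other genes.

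Among the other antiviral effectors 3 fell (30%, beside 19.0% of all genes), 1 rose (10%, beside 22.0%) and 6 did not pass. MX2, a GTPase that blocks viral capsids at the nucleus, gave -0.24, -0.15 and -0.12 in the SHCBP1 shRNA arrays, against 0.13, 0.18 and 0.39 in the control shRNA arrays. MX1, its relative that traps viral nucleoproteins, gave -0.22, -0.26 and -0.06 in the SHCBP1 shRNA arrays and 0.10, 0.06 and 0.07 in the control shRNA arrays. Neither gene's groups overlapped, although SHCBP1 shRNA replicate 3 of MX1 came close to the control arrays. MX2 fell by 0.41 ± 0.07 log2 (SE, adjusted p = 0.00243) and MX1 by 0.26 ± 0.05 log2 (SE, adjusted p = 0.00602). The 2 probe sets of MX2 gave -0.53 and -0.28, and only the first passed on its own.

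ISG20, an exonuclease that degrades single-stranded RNA, stood at -0.22, -0.14 and -0.06 in the SHCBP1 shRNA arrays and at 0.30, 0.06 and 0.17 in the control shRNA arrays. Both groups were wide, and the difference was -0.32 ± 0.07 log2 (SE, adjusted p = 0.00795). SAMD9, an antiviral protein that also restrains growth, stood at 0.09, 0.21 and 0.06 in the SHCBP1 shRNA arrays and at -0.18, -0.06 and -0.22 in the control shRNA arrays. Its difference was 0.28 ± 0.06 log2 (SE, adjusted p = 0.00568), and -0.16 with spike-in scaling. The 6 that did not pass were RSAD2 (viperin, 0.09), CMPK2 (0.03), XAF1 (-0.04), BST2 (tetherin, -0.05), SAMD9L (-0.08) and IFITM1 (-0.12). The IFITM1 protein blocks viral entry, and its gene passed with the replicate number as a block (adjusted p = 0.0452), against adjusted p = 0.118 without it.

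Of the IFI genes 2 rose (40%, beside 22.0% of all genes), none fell (beside 19.0%) and 3 did not pass. IFI6, a membrane protein known to restrain flaviviruses and apoptosis, gave 0.22, 0.23 and 0.24 in the SHCBP1 shRNA arrays, against -0.27, -0.31 and -0.22 in the control shRNA arrays. IFI35, which forms a complex with NMI, gave 0.20, 0.20 and 0.15 in the SHCBP1 shRNA arrays and -0.17, -0.22 and -0.15 in the control shRNA arrays. In both genes the arrays of a group lay close together. IFI6 was higher by 0.50 ± 0.04 log2 (SE, adjusted p = 2.67e-05) and IFI35 by 0.37 ± 0.03 log2 (SE, adjusted p = 0.000109), while spike-in scaling leaves 0.06 and -0.07, neither of which passed. NMI itself, picked out after its values were seen, fell by 0.42 ± 0.03 log2 (SE, adjusted p = 2.85e-05).

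IFI27, a mitochondrial protein gene that interferon induces strongly, did not pass at -0.12 (adjusted p = 0.067). Its 2 probe sets differed, 1 at -0.32, which passed on its own, and 1 at 0.08. Centring the arrays on their medians or repeating quantile normalization gave an adjusted p of 0.0388 and 0.0406 for IFI27, and leaving out control replicate 1 gave 0.044. IFI44 (-0.06) and IFI44L (0.02) did not pass either.

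PARP9 and its partner DTX3L, a ubiquitin ligase that acts with it in DNA repair and interferon responses, were both higher. DTX3L gave 0.12, 0.19 and 0.17 in the SHCBP1 shRNA arrays, against -0.15, -0.22 and -0.17 in the control shRNA arrays. PARP9 gave 0.06, 0.03 and 0.13 in the SHCBP1 shRNA arrays and -0.15, -0.02 and -0.04 in the control shRNA arrays. The gap between the groups was wide for DTX3L and narrow for PARP9. DTX3L was higher by 0.34 ± 0.04 log2 (SE, adjusted p = 0.000211) with 3 probe sets from 0.21 to 0.43, and PARP9 by 0.15 ± 0.05 log2 (SE, adjusted p = 0.0405), and spike-in scaling turns both negative (-0.09 and -0.29). PARP9 was the smallest change that passed, and the call was lost without any one of 4 arrays (adjusted p up to 0.125), with the replicate number as a block (adjusted p = 0.0547), with the median of its probe sets, and with arrays centred on their median or quantile normalization repeated. PARP14, an ADP-ribosyltransferase of the same family, did not pass at 0.04 (95% confidence interval -0.04 to 0.13).

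**Figure D2:**
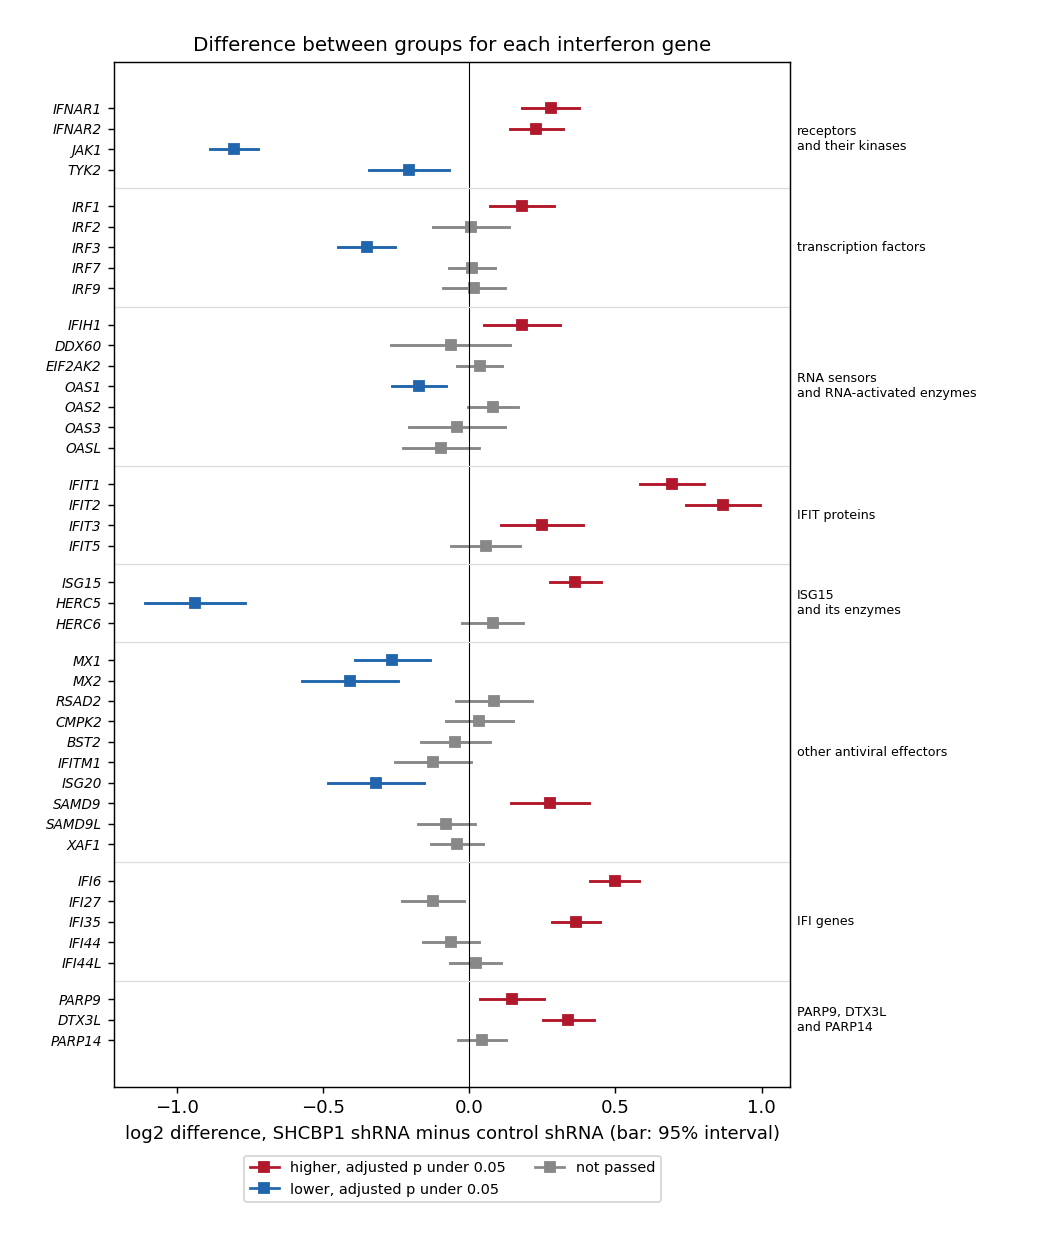
Log2 difference of each interferon gene, SHCBP1 shRNA minus control shRNA (x axis), with its 95% confidence interval from limma, coloured by whether it passed an adjusted p of 0.05. The 13 rises run from 0.15 to 0.87 and the 8 falls from -0.94 to -0.17, and with spike-in scaling 10 of the 13 rises turn negative.

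On probe sets that name only 1 gene, the 20 genes that did not pass had differences between -0.12 and 0.09. Their 95% confidence intervals reached no further than -0.27 and 0.21. With the probe sets shared by OAS2 and OAS3 added, OAS3 lay outside that range, at -0.37, and both genes passed as lower. Among the 20 are RSAD2, CMPK2, IFI44, IFI44L, IRF7 and BST2, which respond to interferon in many cell types. Standard errors over the 41 genes ran from 0.03 to 0.09 log2. At the level of single probe sets the share of rises was nearer to the background than at the level of genes: 22 of 105 probe sets of these genes were higher (21.0%, beside 20.3% of all probe sets with 1 symbol) and 18 were lower (17.1%, beside 18.2%). Of the 12 genes that passed and have several probe sets, 10 had every probe set on the same side of 0, and the exceptions were IRF1 and IFIH1. The other 9 that passed rest on 1 probe set each: TYK2, IFIT1, IFIT3, ISG15, HERC5, MX1, ISG20, SAMD9 and IFI6. Of the 20 that did not pass, 19 had no probe set naming only them past the threshold, and the exception was IFI27. For a gene with 1 probe set, the centring makes the 2 middle values of the 6 arrays equal in size and opposite in sign.

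**Figure D3:**
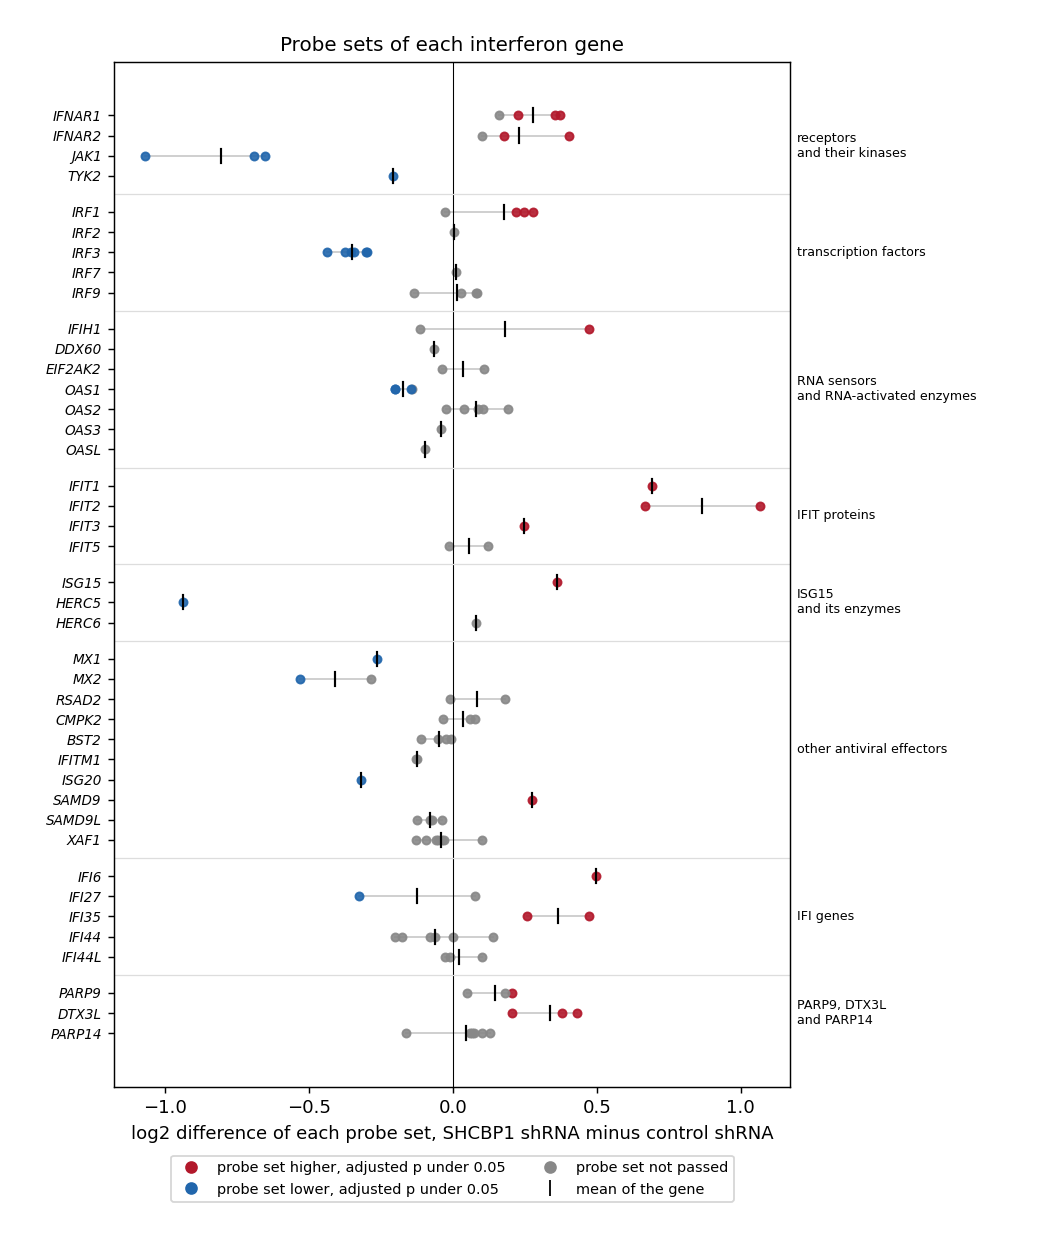
Log2 difference of every probe set that names only 1 interferon gene (points, coloured by the test over all such probe sets) with the gene's mean (black bar). All 6 probe sets of IRF3 lie between -0.44 and -0.30, whereas those of IFIH1 lie at -0.11 and 0.47 and those of IFI27 at -0.32 and 0.08.

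Several of these genes are neighbours on their chromosomes in the RefSeq annotation (assembly GRCh38.p14), and neighbours did not always move together. In the IFIT cluster IFIT2, IFIT3 and IFIT1 rose, relative to other genes, and IFIT5 at its end did not pass. IFNAR2 and IFNAR1 were both higher, and so was IL10RB, the gene between them that encodes a receptor chain shared by interferon lambda and interleukin 10 (0.39 ± 0.04 log2, SE, adjusted p = 9.35e-05), although all 3 are negative with spike-in scaling. MX2 and MX1 lie side by side and both fell. PARP9 and DTX3L lie head to head and were both higher, while PARP14, beyond PARP15, did not pass. In contrast HERC5 fell by 0.94 next to HERC6 at 0.08, and SAMD9 was higher by 0.28 next to SAMD9L at -0.08. OAS1 fell by 0.17 next to OAS3, which stood at -0.04 on its own probe set and at -0.37, which passed, with the shared probe sets added. The pairs IFI44L and IFI44, and CMPK2 and RSAD2, held no gene that passed.

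Promoters are shown for the 6 genes with the largest changes that passed and whose RefSeq promoter window holds an ISRE core, 4 higher and 2 lower, because they let the target site be set beside both directions of change. The sequences are from RefSeq (build GRCh38.p14), each from 250 bases before to 50 after an annotated transcript start, printed 5′ to 3′ on the gene's own strand. The windows are chr10:89392373-89392672 on the plus strand for IFIT1, chr1:27672143-27672442 on the minus strand for IFI6, chr1:1013247-1013546 on the plus strand for ISG15, chr3:122564088-122564387 on the plus strand for DTX3L, chr4:88456869-88457168 on the plus strand for HERC5 and chr15:88638766-88639065 on the plus strand for ISG20. Capitals mark each match to the ISRE core, which is GAAA, any 2 bases and GAAA again, or its reverse complement, TTTC, any 2 bases and TTTC, and overlapping matches run together.
IFIT1: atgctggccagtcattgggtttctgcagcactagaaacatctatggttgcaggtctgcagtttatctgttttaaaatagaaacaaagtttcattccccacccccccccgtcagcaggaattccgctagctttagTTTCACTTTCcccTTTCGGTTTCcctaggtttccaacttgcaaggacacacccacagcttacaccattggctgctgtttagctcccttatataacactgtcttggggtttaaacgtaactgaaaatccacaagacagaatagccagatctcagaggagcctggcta
IFI6: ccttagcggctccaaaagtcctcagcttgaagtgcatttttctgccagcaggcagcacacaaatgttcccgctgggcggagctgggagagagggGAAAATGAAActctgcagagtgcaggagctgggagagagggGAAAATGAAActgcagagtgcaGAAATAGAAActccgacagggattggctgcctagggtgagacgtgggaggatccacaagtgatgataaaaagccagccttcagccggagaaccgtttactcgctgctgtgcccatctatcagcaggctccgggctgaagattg
ISG15: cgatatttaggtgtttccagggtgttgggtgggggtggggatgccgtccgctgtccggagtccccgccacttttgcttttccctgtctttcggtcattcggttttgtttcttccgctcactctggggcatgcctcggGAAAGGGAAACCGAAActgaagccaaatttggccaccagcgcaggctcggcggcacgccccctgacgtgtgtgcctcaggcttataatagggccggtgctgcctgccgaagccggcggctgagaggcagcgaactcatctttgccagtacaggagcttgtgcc
DTX3L: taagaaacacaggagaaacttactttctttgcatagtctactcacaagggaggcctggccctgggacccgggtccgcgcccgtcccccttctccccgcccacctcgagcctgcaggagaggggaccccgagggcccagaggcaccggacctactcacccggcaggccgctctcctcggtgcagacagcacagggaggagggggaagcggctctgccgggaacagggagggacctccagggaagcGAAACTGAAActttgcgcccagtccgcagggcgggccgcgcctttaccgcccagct
HERC5: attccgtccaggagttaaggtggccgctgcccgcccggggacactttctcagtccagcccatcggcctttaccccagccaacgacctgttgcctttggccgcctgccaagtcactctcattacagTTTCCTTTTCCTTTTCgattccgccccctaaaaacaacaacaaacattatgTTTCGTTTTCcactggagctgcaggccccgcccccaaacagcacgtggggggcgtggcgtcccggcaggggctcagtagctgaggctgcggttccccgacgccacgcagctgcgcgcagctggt
ISG20: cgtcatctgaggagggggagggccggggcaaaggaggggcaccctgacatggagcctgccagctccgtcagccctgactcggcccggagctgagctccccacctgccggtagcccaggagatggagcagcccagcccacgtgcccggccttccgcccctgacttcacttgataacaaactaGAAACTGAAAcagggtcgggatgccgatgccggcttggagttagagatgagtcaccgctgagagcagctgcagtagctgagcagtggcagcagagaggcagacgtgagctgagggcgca

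IFIT1 holds 2 matches that begin at positions -116 and -103 from the start of transcription, and ISG15 holds 2 that overlap, at -113 and -107. IFI6 holds 3, at -156, -115 and -93. HERC5, which fell, holds 3 as well, at -125, -119 and -74, and ISG20 holds 1 at -69. The single match of DTX3L, at -6, lies in a stretch of 137 bases that the window of PARP9 also covers. These 6 windows were chosen because they hold the core, so finding it in each of them is no result.

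Of the 43 genes 34 had a promoter window, and 22 of these 34 held the ISRE core. Of all genes with a window 4.38% held it, as did 3.57% of all windows of this length. The core was present in 8 of 11 genes that were higher, in 3 of 6 that were lower and in 11 of 16 that did not pass, and STAT2 is the remaining gene with a window. Among all 599 tested genes with the core 21.5% were higher and 19.2% lower, close to the 22.0% and 19.0% of all genes. IFIT2, which rose most, had no window in the table. The gamma-activated site TTCNNNGAA, which STAT dimers bind and which reads the same on both strands, was present in 10 of the 34. It was present in 9.38% of all genes with a window. Among the 10 were IRF1 and IFI35, which were higher, and OAS1 and MX1, which were lower. The site occurred together with the ISRE core in 6 genes and overlapped a match of the core in 5 windows. Among all 1331 tested genes with the gamma-activated site 22.6% were higher and 18.5% lower. A match says only that these letters are present.

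**Figure D4:**
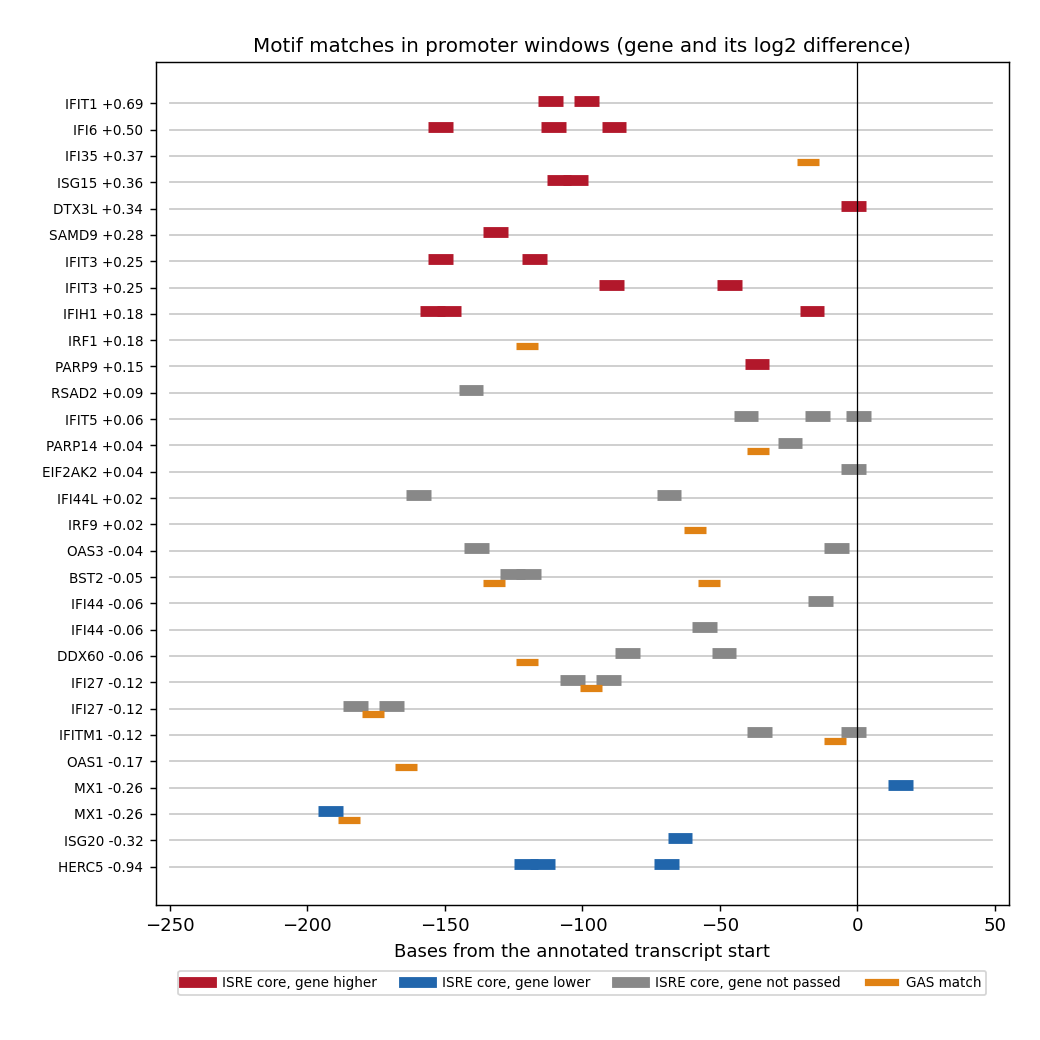
Position of each motif match from the annotated transcript start (x axis, bases; grey lines are the windows) for interferon genes with at least 1 match, ordered from the largest rise to the largest fall, with the log2 difference beside the name. Thick bars are ISRE cores coloured by the gene's test result and orange bars are gamma-activated sites, and ISRE cores occur from IFIT1 at the top to HERC5 at the bottom.

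The wider pathway was described with 6 further lists, 126 genes of which 116 could be tested. Of these 28 were higher (24.1%, beside 22.0% of all genes) and 24 lower (20.7%, beside 19.0%), with a median difference of 0.01. The interferon ligands gave 1 rise and no fall among 17: IFNA14, one of the many interferon alpha genes, was higher by 0.28 ± 0.07 log2 (SE, adjusted p = 0.0194). The gene for interferon beta, IFNB1, picked out after its value was seen, did not pass at -0.06 (95% confidence interval -0.24 to 0.12). With spike-in scaling IFNA14 became -0.16.

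Of 6 other receptor and JAK-STAT genes 4 were higher and none lower, beside 22.0% and 19.0% of all genes. Spike-in scaling, which lowers every gene by 0.43 and leaves 441 of 18132 genes higher, turned all 4 negative. Beside IL10RB these were the kinase gene JAK2 (0.36 ± 0.04, SE), STAT3 (0.20 ± 0.04, SE) and the interferon gamma receptor chain IFNGR1 (0.10 ± 0.03, SE). The 3 probe sets of JAK2 ranged from 0.03 to 0.75. For IFNGR1 the limma adjusted p was 0.0377, and neither of its 2 probe sets passed on its own. With spike-in scaling JAK2 stood at -0.08. Among 10 genes that restrain the pathway 2 rose and 4 fell, beside the same background shares. SOCS1, an inhibitor of JAK kinases that interferon induces, was higher by 0.43 ± 0.07 log2 (SE, adjusted p = 0.00134), and PTPN2, a phosphatase that acts on JAK1, by 0.32 ± 0.04 (SE), with 3 probe sets from -0.04 to 0.83 of which 1 passed, while spike-in scaling gives values below 0 for both. IRF2BP2, a co-repressor that binds IRF2, fell by 0.81 ± 0.04 (SE) and PIAS3, an inhibitor of STAT3, by 0.42 ± 0.04 (SE), with 4 of its 5 probe sets lower and a range from -0.67 to 0.09.

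Of 17 genes of nucleic acid sensing 2 were higher (11.8%, beside 22.0% of all genes) and 6 lower (35.3%, beside 19.0%). MAVS, the mitochondrial adaptor through which IFIH1 signals, fell by 0.50 ± 0.03 log2 (SE, adjusted p = 1.89e-05), although its 7 probe sets ranged from -0.94 to -0.05. RNF135 and TRIM25, ligases that act on the sensor RIG-I, fell by 0.29 ± 0.04 (SE) and 0.25 ± 0.04 (SE). TLR3, the endosomal receptor for double-stranded RNA, fell by 0.29 ± 0.06 (SE). The probe sets of TRIM25 gave -0.54 and 0.03. The 2 that were higher, named after their values were seen, were RIGI, the sensor of short double-stranded RNA (0.25 ± 0.04, SE), and TRAF3, an adaptor ligase (0.13 ± 0.04, SE), and spike-in scaling turns both negative (-0.19 and -0.30). The 3 probe sets of TRAF3 ran from -0.41 to 0.45 and passed in both directions.

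Of 37 other interferon-stimulated genes 10 were higher (27.0%, beside 22.0%) and 12 lower (32.4%, beside 19.0%). LAMP3 and LGALS3BP fell by 1.24 ± 0.04 (SE) and 1.04 ± 0.04 log2 (SE), both more than any of the 41 genes. EPSTI1 was higher by 0.77 ± 0.09 (SE), and by 0.33 with spike-in scaling. APOBEC3F, a cytidine deaminase that restricts retroviruses, fell by 0.53 ± 0.03 (SE), with probe sets from -1.13 to 0.19. Of 29 genes of antigen presentation and the interferon gamma response 9 were higher (31.0%, beside 22.0%) and 2 lower (6.90%, beside 19.0%). The immunoproteasome gene PSMB9 was higher by 0.66 ± 0.04 (SE), although 1 of its 3 probe sets lay just below 0, the guanylate-binding protein gene GBP3 by 0.41 ± 0.07 (SE) and the peptide transporter gene TAP1 by 0.39 ± 0.04 (SE), and with spike-in scaling PSMB9 stayed above 0 while GBP3 and TAP1 did not. WARS1, a tRNA synthetase that interferon gamma induces, fell by 0.79 ± 0.04 (SE). Of 10 immune cell markers 0 passed limma's test in either direction, beside 41.0% of all genes. Their differences ran from -0.14 to 0.08, and only CD68 (-0.12) was at an unadjusted p under 0.05. In 2 of the 10 every SHCBP1 shRNA array lay below every control array, beside 22.7% of all genes.

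**Figure D5:**
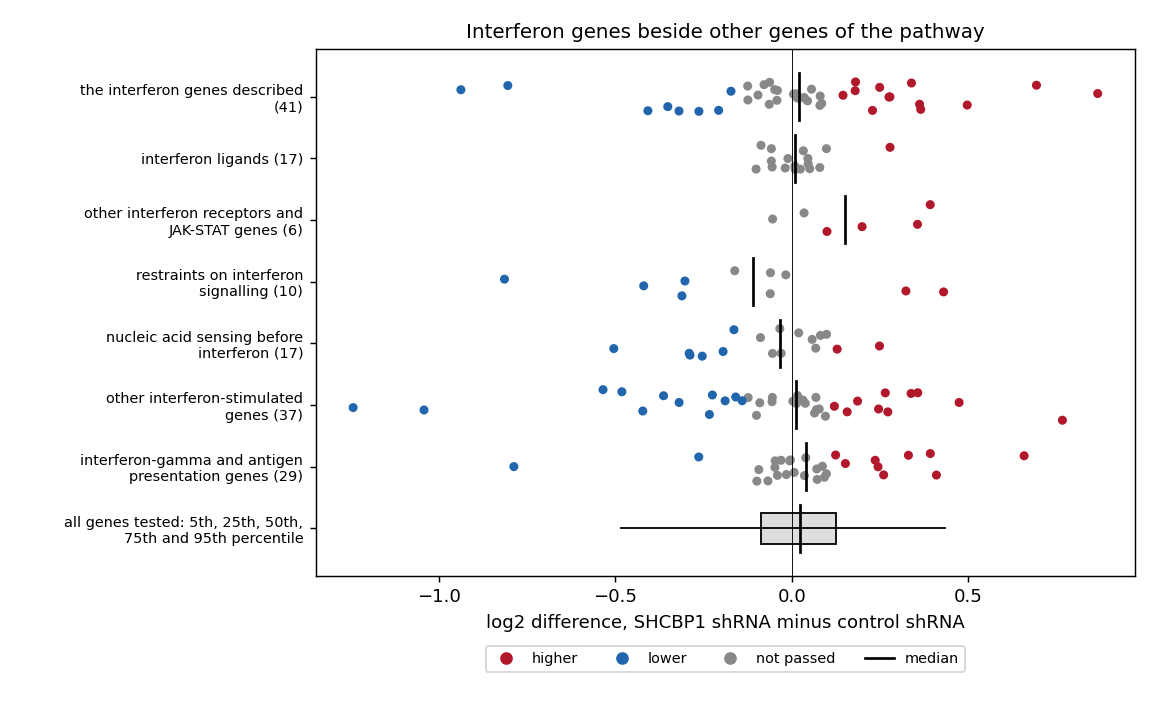
Log2 difference of each gene, SHCBP1 shRNA minus control shRNA (x axis), for the interferon genes described here and for 6 further lists of the pathway, with the number tested in brackets, medians as black bars and the spread of all genes at the bottom. The medians of the interferon genes and of all genes both lie at 0.02, and every list median falls below 0 with spike-in scaling.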

How the data were processed

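RNA from 6 cell samples, 3 with SHCBP1 shRNA and 3 with control shRNA, was hybridised to Affymetrix PrimeView arrays. The authors deposited RMA log2 values per probe set, per the submitters' processing notes. The base of the logarithm and the RMA software are not stated there, and log2, the scale RMA returns, was assumed. In the values themselves each probe set is centred on its median over the 6 arrays, so no filter on dim probe sets was possible. Of 49395 probe sets, 102 were controls, 44988 named 1 gene symbol, 1832 named several and 2473 named none. Probe sets that name only 1 gene were averaged per gene, and 18132 genes were fitted together with limma 3.58.1 (lmFit and eBayes, R 4.3.3), with two-sided p-values adjusted by Benjamini-Hochberg across the 18132 genes and called at 0.05. The procedure was also tested on simulated data. Groups came from the sample labels. Replicate numbers are not stated to mark a shared culture, so no block was used in the main fit. Deviations of arrays with the same replicate number had correlations of 0.02, -0.05 and 0.07. The interferon genes and the lists were chosen with earlier results of these data known. Every interferon gene that passed is described with its arrays, and from each further list up to 4 genes with the largest changes that passed are named. UBA7, UBE2L6, NMI, IFNB1, RIGI, TRAF3 and CD68 fall outside that rule and were chosen after their values were seen. Alternatives covered normalization, spike-in scaling, the summary of probe sets, array weights, robust moderation, a replicate block and leaving out each array. Promoter motifs were searched on both strands of RefSeq windows.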

Additional observations from a re-analysis of the deposited data

Results flagged for a closer look

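The probe set that names USP18 together with 4 other loci was left out of the gene comparisons. With SHCBP1 shRNA it read 0.44 log2 above control shRNA (95% confidence interval 0.26 to 0.62), and is listed because it is a signal in data that those comparisons did not use. Spike-in scaling lowers every difference by 0.43, so it would leave almost none of this rise. Which of the 5 loci the probe set measures was not tested.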

How the results depend on the processing

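Of the alternatives, spike-in scaling had the widest effect, giving 2 interferon genes higher and 34 lower, 441 and 16268 of all genes, and 2 and 103 of the other pathway genes. It turned the sign of IFNAR1 (-0.16), IFNAR2 (-0.20), IRF1 (-0.25), IFIH1 (-0.25), IFIT3 (-0.18) and PARP9 (-0.29), which then passed as lower. The sign of ISG15 (-0.072), SAMD9 (-0.16), IFI35 (-0.068) and DTX3L (-0.095) turned too, but these did not pass. Whether the total RNA per cell differed was not tested. With _s_at and _x_at probe sets removed, 18 other pathway genes were higher and 17 lower, 11 interferon genes were higher and 8 lower, and fewer genes could be tested. Taken singly, 1 probe set each of IRF1 (-0.025) and IFIH1 (-0.11) pointed down. With probe sets that name several genes added, 13 interferon genes were higher and 10 lower, as OAS2 and OAS3 then passed as lower. Leaving out each array in turn gave SHCBP1 differences of -1.59 to -1.47, 3536 to 3699 genes higher and 3119 to 3232 lower, 10 to 12 interferon genes higher and 7 to 8 lower, and 23 to 26 other pathway genes higher and 21 to 24 lower. TYK2 and PARP9 lost their calls without SHCBP1 shRNA replicate 1 or 3 or control replicate 1 or 3, and IRF1 and IFIH1 without replicate 2 or 3 of either group. With the replicate number as a block, 11 interferon genes were higher and 8 lower, and 3 of 6 arrays correlated best with their own number. Array weights and robust moderation changed no call of an interferon gene that had passed. The limits are 3 arrays per group, centred values with no signal level, 9 genes that passed on 1 probe set each, and 1 hairpin.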
